A study of Mus musculus with 8 samples.

Results

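Aminoacyl-tRNA synthetases, the enzymes that load each amino acid onto its transfer RNA, were examined in cultured mouse adipocytes treated with DoxSa or with DMSO. The genes were taken by name, as every entry of the table whose symbol is a single-letter amino acid code followed by "ars", with or without a final 1, 2 or 3, together with Farsa, Farsb and Eprs. This gave 37 of the 22962 genes in the table, of which 20 have no suffix or the suffix 1 and encode the cytosolic enzymes, and 17 have the suffix 2 and encode the mitochondrial enzymes. Of the 37 symbols, 16 are older forms (Aars for the present Aars1, for example), and the symbols are printed here as the table gives them.

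The cells were wild-type stromal vascular fraction cells of gonadal fat, the non-adipocyte cells of the tissue, that had been turned into mature adipocytes in culture. On day 6 they received DoxSa (4 libraries, numbered 1 to 4) or the solvent DMSO (4 libraries, numbered 1 to 4). DoxSa is not spelled out in the labels, and the title of the series is about 1-deoxysphingolipids, lipids made when the first enzyme of sphingolipid synthesis takes alanine instead of serine. The labels do not give the cultures or animals behind the libraries, so the p-values measure the spread between these libraries, which may be technical, and the culture can hold undifferentiated and immune cells beside adipocytes.

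A synthetase recognises 1 amino acid and the transfer RNAs that carry it, activates the amino acid with ATP and joins the pair, and ribosomes then draw on the charged transfer RNA. Cytosol and mitochondria run separate translation systems, and most amino acids have a separate nuclear gene for each compartment, although the genes Gars and Kars each make the enzyme for both. When charged transfer RNA runs short or the secretory pathway is overloaded, kinases of the integrated stress response phosphorylate the initiation factor eIF2, and the transcription factor ATF4, whose mRNA is then translated more, is known to switch on amino acid transporters, amino acid synthesis and many cytosolic synthetase genes. Cytosolic synthetases divide into class I and class II by the fold of the catalytic domain, and 8 of them are held with 3 scaffold proteins in the multi-tRNA synthetase complex.

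Levels are FPKM, in which the reads of a gene are divided by its length and by the reads of the library, so that genes can be compared with each other as well as between groups. Comparisons between genes depend on the lengths used. The libraries held 39213008 to 41365861 reads, and between 165 and 10280 reads per library lay behind each synthetase (at least 974 for the cytosolic ones). Groups were compared with limma on log2(FPKM + 1) over the 12060 genes that averaged 0.5 FPKM or more in the 8 libraries, as all 37 synthetases did. Fold changes below are DoxSa over DMSO on that log2 scale with their standard errors, and a gene was called at a Benjamini-Hochberg adjusted p under 0.05 over all tested genes. The 1 added to each FPKM, the pseudocount, draws the fold changes of low genes toward 0. Most mitochondrial synthetases had lower FPKM than most cytosolic ones, so this affects them more. In the table's own annotation, 37 of the 37 genes stood in the aminoacyl-tRNA biosynthesis pathway, 17 of the 20 genes counted as cytosolic carried the term cytosol, and 17 of the 17 counted as mitochondrial carried the term mitochondrion. The terms do not separate the groups. The cytosolic Aars, Gars, Hars, Kars, Mars1, Nars, Rars, Sars and Vars also carried mitochondrion, and the mitochondrial Hars2, Nars2, Vars2 and Yars2 also carried cytosol.

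A minority of the cytosolic synthetase transcripts were called higher in DoxSa than in DMSO cells, and the difference between cytosolic and mitochondrial genes was not tested. Of the 20 cytosolic genes, 5 rose (Rars, Nars, Wars1, Tars and Sars) and 0 fell, while of all tested genes 3.88% rose and 2.02% fell (5.9% in either direction). Among the 6201 tested genes that were at least as abundant as the lowest cytosolic synthetase, 4.81% rose. The fold change was above 0 for 19 of 20 cytosolic genes, with a median of 0.10 and a range of -0.0019 to 0.29, against 56.7% of all tested genes and their median of 0.01, and 1 of the 19, Mars1, turned below 0 under 3 rescalings of the libraries. Of the 17 mitochondrial genes, 0 rose and 0 fell in limma, and 0 were called with voom on reads recovered from the table, while 1, Yars2, was higher and 2 were lower, Cars2 among them, at an unadjusted p under 0.05. Their median fold change was -0.0042 and their range -0.25 to 0.15. At that unadjusted threshold 12 of the 20 cytosolic genes were higher and 0 lower, with 12.6% of all tested genes higher and 7.24% lower. The number of cytosolic genes that rose was 3 without DoxSa library 1 and 3 without DoxSa library 2, and without those libraries 250 and 234 of all tested genes rose, where 468 did with all 8.

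Summed over the 20 cytosolic genes, the level was 675, 689.9, 661 and 667 FPKM in DoxSa libraries 1 to 4, against 609.95, 631, 623 and 606 FPKM in DMSO libraries 1 to 4. Every DoxSa sum lay above every DMSO sum. The 17 mitochondrial genes summed to 83.2, 80.6, 80.5 and 78.6 FPKM in the DoxSa libraries and 78.6, 81.3, 80.4 and 86.6 FPKM in the DMSO libraries, and these groups overlapped. The sums are a description, and no test was run on them. In bulk RNA, a change in the mix of cells and a change in RNA per cell cannot be told apart.

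**Figure D1:**
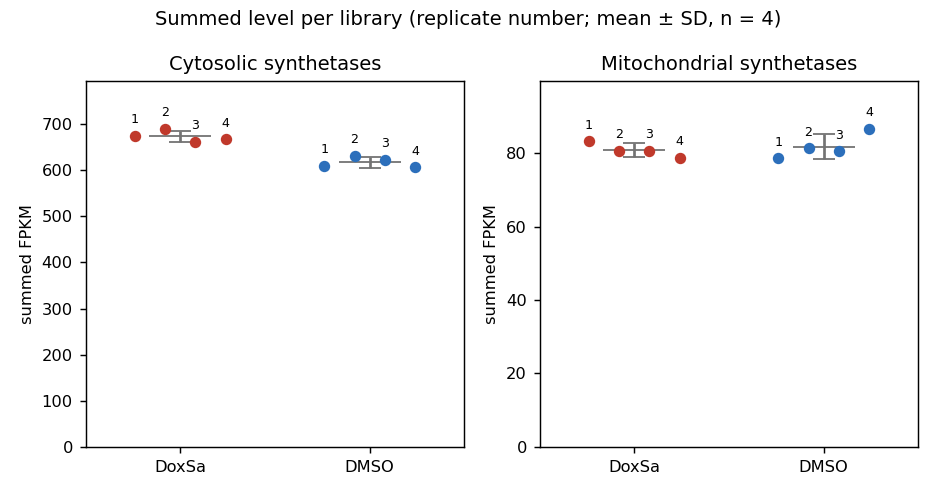
Summed FPKM of the 20 cytosolic and the 17 mitochondrial synthetases in each library (points, numbered by replicate) with the mean and SD of 4 libraries, both axes starting at 0. The cytosolic sums of the DoxSa libraries all lie above those of the DMSO libraries, and the mitochondrial sums overlap.

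Among the 8 synthetases of the multi-tRNA synthetase complex, 1 rose, Rars, the arginyl-tRNA synthetase. Rars measured 42.8, 44.0, 40.1 and 38.8 FPKM in the DoxSa libraries, against 35.3, 33.0, 35.2 and 33.9 FPKM in the DMSO libraries. All 4 DoxSa values stood above the highest DMSO value, and DoxSa library 4 was the nearest to it. The means were 41.4 ± 2.41 FPKM in DoxSa and 34.4 ± 1.1 FPKM in DMSO cells (SD, n = 4 each), 20.6% higher, with a log2 fold change of 0.26 ± 0.044 (limma, Benjamini-Hochberg adjusted p = 0.00676). It was called in all 19 alternative analyses that were run, with adjusted p-values between 0.00171 and 0.0381.

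The other 7 complex members were not called. Kars, the lysyl enzyme, averaged 45.6 ± 0.794 FPKM in DoxSa and 42.8 ± 1.47 FPKM in DMSO cells (fold change 0.09, 95% interval 0.02 to 0.17, limma adjusted p = 0.156). Dars, the aspartyl enzyme, averaged 46.3 ± 1.51 FPKM in DoxSa and 42.8 ± 1.34 FPKM in DMSO cells (0.11, interval 0.03 to 0.19, limma adjusted p = 0.110). Iars, for isoleucine, averaged 23.6 ± 0.576 FPKM in DoxSa and 22.3 ± 0.876 FPKM in DMSO cells (0.08, limma adjusted p = 0.290). The groups of these 3 genes did not overlap, although for Iars the margin was small, with 22.93 FPKM in the lowest DoxSa library and 22.92 FPKM in the highest DMSO library. Over all members, 9 cytosolic and 0 mitochondrial genes had every DoxSa library above every DMSO library, as had 7.8% of all tested genes. The reverse, every DoxSa library below every DMSO library, was seen in 0 of the 37 and in 4.71% of all tested genes.

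Lars, for leucine, had a fold change of 0.10 (interval 0.01 to 0.19), and Eprs, a single protein that charges both glutamate and proline, 0.09 (interval -0.0045 to 0.18). Qars, for glutamine, had 0.04 (interval -0.04 to 0.13). The groups overlapped in each of them. Mars1, for methionine, measured 14.1, 13.8, 14.3 and 14.7 FPKM in DoxSa libraries and 13.99, 14.8, 13.7 and 14.4 FPKM in DMSO libraries, a fold change of 0.0024 with an interval of -0.08 to 0.09 that excludes the size seen for Rars. Its sign turned under rescaling to equal FPKM sums (-0.01), median-of-ratios scaling (-0.01) and quantile normalization (-0.03). In the RefSeq gene table Mars1 overlaps Ddit3, the gene of the stress factor CHOP, and since it is not stated whether reads were counted by strand, reads of these neighbours may not be separable. The scaffold genes of the complex were not called either, with fold changes of 0.08 for Aimp1 (limma adjusted p = 0.419), 0.10 for Aimp2 (adjusted p = 0.221) and 0.10 for Eef1e1 (adjusted p = 0.648). In voom 0 of these 3 were called, and Aimp2 was higher at an unadjusted p under 0.05.

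Of the 12 cytosolic synthetases outside the complex, 4 rose. Wars1, the tryptophanyl-tRNA synthetase, which is also known as a gene induced by interferon gamma, had the highest fold change of the 37 with all 8 libraries on this scale. It measured 19.4, 22.3, 20.5 and 20.3 FPKM in the DoxSa libraries, against 16.96, 18.4, 15.6 and 16.04 FPKM in the DMSO libraries. The groups did not overlap, and replicate 2 was the highest library in both. The means were 20.6 ± 1.2 FPKM in DoxSa and 16.7 ± 1.24 FPKM in DMSO cells, 23.3% higher, with a log2 fold change of 0.29 ± 0.055 (limma, Benjamini-Hochberg adjusted p = 0.0130). The call was lost with no filter on low values (adjusted p = 0.0694) and held in the other 18 alternatives.

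Nars, the asparaginyl enzyme and the most abundant synthetase transcript in these cells, measured 92.2, 95.5, 87.6 and 90.8 FPKM in the DoxSa libraries, against 78.5, 82.4, 82.0 and 78.5 FPKM in the DMSO libraries. The lowest DoxSa library stood above the highest DMSO library. Its means were 91.55 ± 3.27 FPKM in DoxSa and 80.3 ± 2.16 FPKM in DMSO cells (SD, n = 4 each), with a log2 fold change of 0.19 ± 0.035 (limma, Benjamini-Hochberg adjusted p = 0.0123). It was called in all 19 alternatives.

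Tars, the threonyl enzyme, measured 36.3, 37.7, 35.7 and 34.3 FPKM in the DoxSa libraries, against 32.5, 32.4, 30.8 and 31.6 FPKM in the DMSO libraries. The groups did not overlap, and the log2 fold change was 0.17 ± 0.037 (limma, Benjamini-Hochberg adjusted p = 0.0194). The call was lost without DoxSa library 1 (adjusted p = 0.0569), without DoxSa library 2 (0.0595), without DMSO library 3 (0.0531) and with no filter on low values (0.0524).

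Sars, the seryl enzyme, which also charges the transfer RNA that is later converted to selenocysteine, measured 52.0, 54.1, 52.6 and 54.2 FPKM in the DoxSa libraries, against 48.4, 48.1, 50.2 and 48.2 FPKM in the DMSO libraries. The groups were separate, with DMSO library 3 apart from the other 3 of its group and nearest to DoxSa. The log2 fold change was 0.12 ± 0.031 (limma, Benjamini-Hochberg adjusted p = 0.0392). This is the least firm of the 5 calls, since it held in 7 of 19 alternatives and was lost when any single library other than DMSO library 3 was left out, with adjusted p-values of 0.0591 to 0.106. It was also lost under rescaling to equal FPKM sums, median-of-ratios scaling and quantile normalization, and without the intensity trend.

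Aars, the alanyl enzyme, stood just outside the threshold. It measured 30.9, 31.3, 31.1 and 29.0 FPKM in the DoxSa libraries, against 28.1, 29.2, 26.4 and 27.0 FPKM in the DMSO libraries. DoxSa library 4 lay within the DMSO range, so the groups overlapped, and the fold change was 0.14 ± 0.041 (limma adjusted p = 0.0764). Cars, for cysteine, averaged 12.0 ± 0.448 FPKM in DoxSa and 10.8 ± 0.220 FPKM in DMSO cells without overlap (0.14 ± 0.039, limma adjusted p = 0.0594). With voom on the recovered reads, Aars (adjusted p = 0.0408) and Cars (adjusted p = 0.047) were called as well, which made 7 cytosolic genes, against 5.2% of all tested genes called higher by that method.

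The remaining 6 cytosolic synthetases outside the complex were not called. Their fold changes were 0.12 for Vars (valine, interval 0.0060 to 0.24), 0.10 for Yars (tyrosine, 0.02 to 0.18), 0.10 for Farsb (-0.0004 to 0.20), 0.09 for Gars (glycine, -0.0031 to 0.18), 0.04 for Hars (histidine, -0.04 to 0.13) and -0.0019 for Farsa (-0.11 to 0.11). Farsa and Farsb encode the alpha and beta subunits of a single enzyme for phenylalanine. Farsa averaged 14.3 ± 0.697 FPKM in DoxSa and 14.3 ± 0.867 FPKM in DMSO cells, and Farsb averaged 8.02 ± 0.395 FPKM in DoxSa and 7.42 ± 0.265 FPKM in DMSO cells. The sign of the Farsa value turned when DoxSa library 2 or 4 or DMSO library 1 or 3 was left out, with values of -0.03 to 0.03 over the 8 libraries left out in turn.

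**Figure D2:**
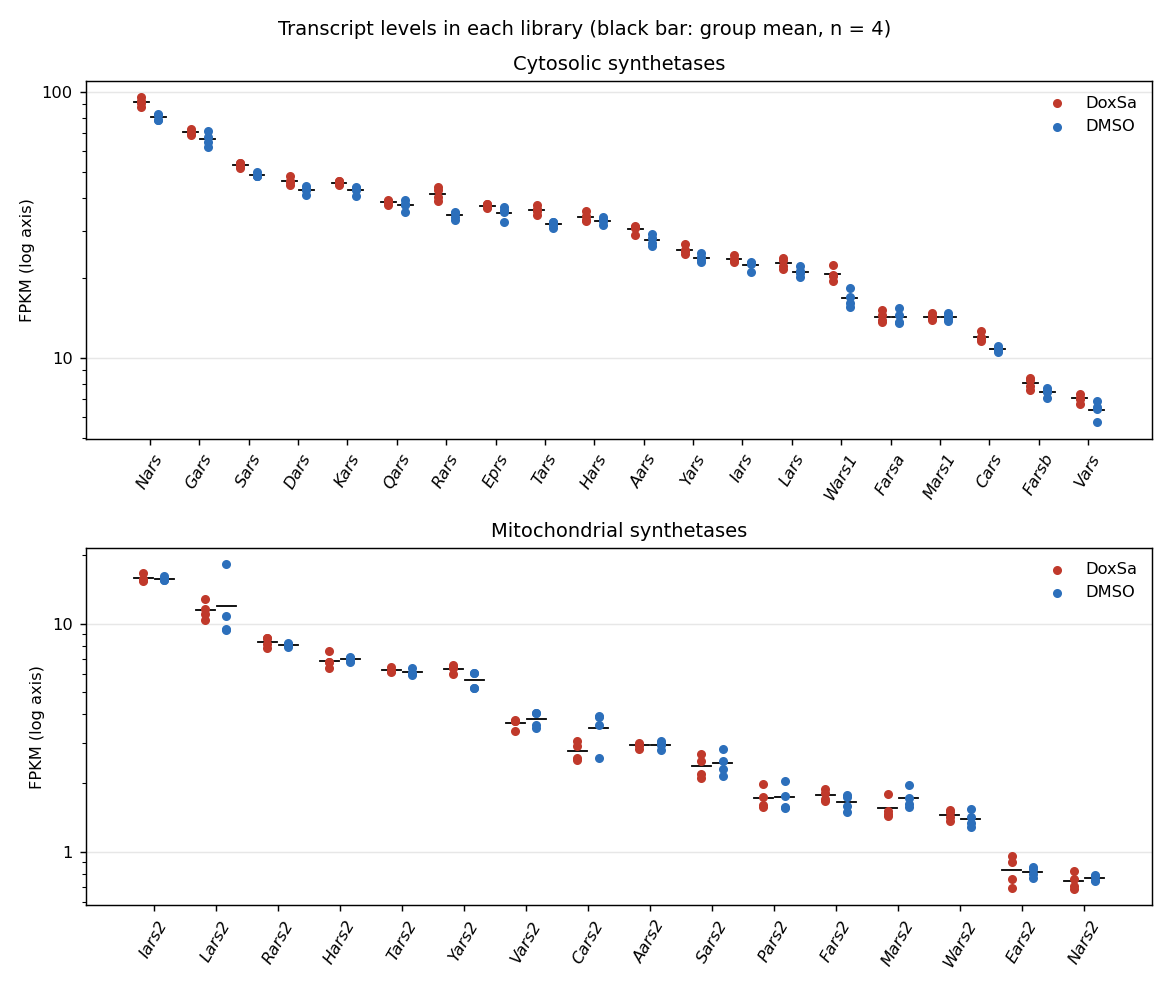
FPKM of 36 of the 37 synthetases (log axis) in the 4 DoxSa libraries (red, left of each pair) and the 4 DMSO libraries (blue), with black bars for the group means, ordered by mean level within each compartment. Nars stands highest among the cytosolic genes and Nars2 lowest among the mitochondrial ones, and 1 DMSO library stands alone at 18.3 FPKM for Lars2.

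The cytosolic genes were also described by structural and functional subgroup, beside the same background (3.88% of all tested genes rose, and 4.81% of those at least as abundant as the lowest cytosolic gene). The 9 class I genes had a median fold change of 0.10 with 2 called, and the 10 class II genes had a median of 0.10 with 3 called, Eprs being left out because it holds a domain of each class. The 8 complex members had a median of 0.09 with 1 called, and the 12 others had 0.12 with 4 called. Among the 12 synthetases that are commonly listed as ATF4 targets, 12 had a fold change above 0, the median was 0.11 and 4 were called. The 8 cytosolic synthetases outside that list had 7 above 0, a median of 0.10 and 1 called, which was Rars. No test between these subgroups was run.

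**Figure D3:**
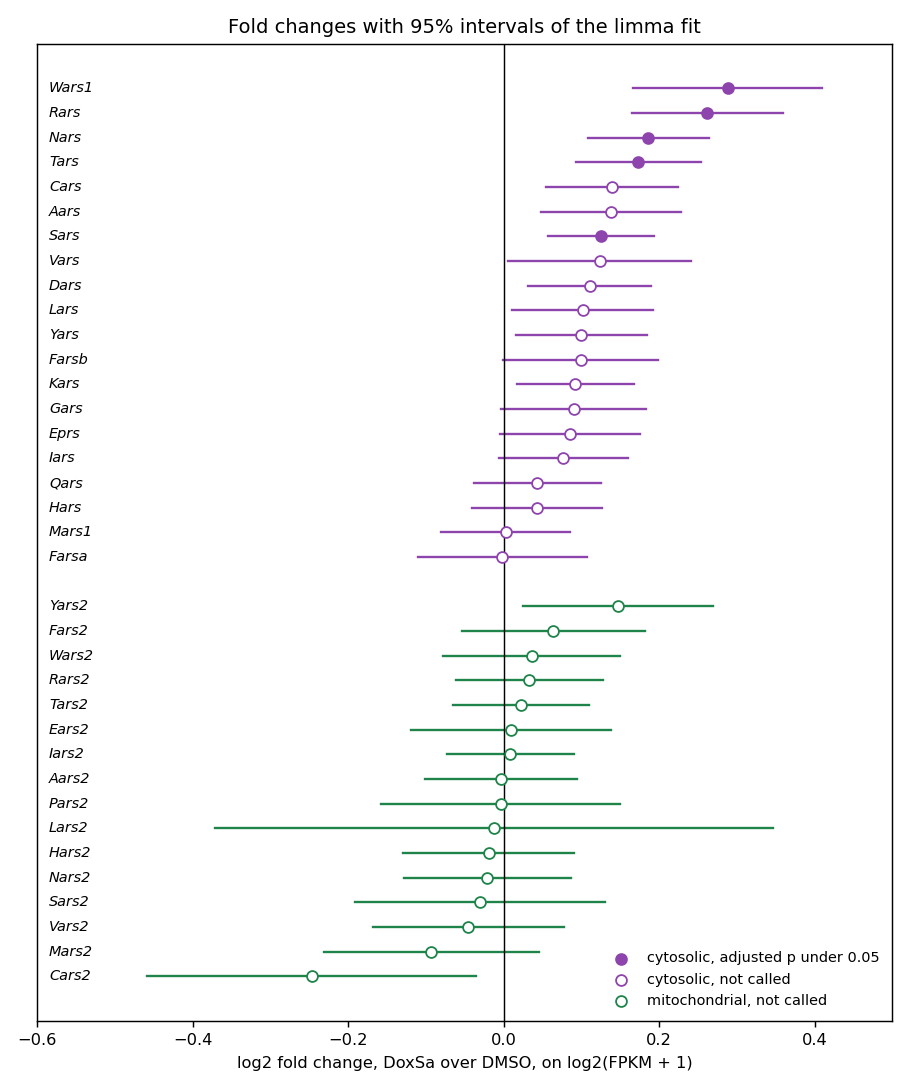
Log2 fold change of DoxSa over DMSO for 36 of the 37 synthetases (points) with its 95% interval from limma (lines), cytosolic genes in purple above and mitochondrial genes in green below, filled where the adjusted p is under 0.05. Of the cytosolic points 19 of 20 lie right of 0 (Mars1 turned under 3 rescalings), while the mitochondrial points lie on both sides, with a median of -0.0042 over all 17.

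Promoter windows from RefSeq (build GRCm38.p6, 250 bases before to 50 bases after the gene's start) were at hand for 27 of the 37 genes, 13 cytosolic and 14 mitochondrial. Among the 5 genes that rose, Tars and Sars had a window. The 27 genes had 28 windows in all, and the last bases of 22 of them lay in the opening part of a transcript of the gene. The windows were searched on both strands for TGATGNAA, the composite element that ATF4 binds with a C/EBP partner. Counted by gene, it was present in a window of 5 of 13 cytosolic genes (38.5%), 0 of 14 mitochondrial genes and 1219 of all 27025 genes with a window (4.51%). In a list of other ATF4-pathway genes, described below, 10 of 27 genes with a window held it (37%). The 5 genes were Tars, Aars, Gars, Iars and Yars, and Sars had no match in its window. A match is a run of letters, and no binding was measured here. The matches are printed 5′ to 3′ on the strand that reads TGATGNAA, with 10 bases on each side and the match in capitals, for the gene that rose and for the 4 others (the match nearest to the start), since the element occurred in windows of cytosolic genes and in 0 of the mitochondrial ones.
Tars, chr15:11399656-11399683, plus strand, opposite to the gene: gctaaccagcTGATGCAAcgggactcct
Aars, chr8:111033841-111033868, minus strand, opposite to the gene: cagagcgctcTGATGAAAagtgacccgc
Gars, chr6:55037961-55037988, minus strand, opposite to the gene: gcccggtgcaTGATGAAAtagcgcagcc
Iars, chr13:49682127-49682154, minus strand, opposite to the gene: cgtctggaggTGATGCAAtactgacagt
Yars, chr4:129189896-129189923, plus strand, same as the gene: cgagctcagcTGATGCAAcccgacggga
Of these 5 matches 4 lie on the strand opposite to the gene, and 3 read TGATGCAA while the Aars match and the Gars match read TGATGAAA. Counted from the gene's start, the Tars match covers bases -15 to -8, the Gars match -30 to -23 and the Aars match 10 to 17. The Iars match covers bases 8 to 15 and the Yars match bases 4 to 11, just inside the transcript. Of these 5 genes Tars rose, and Aars, Gars, Iars and Yars had fold changes of 0.14, 0.09, 0.08 and 0.10 without a call.

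The whole Tars window is shown because it is the only promoter at hand that belongs to a gene that rose and holds the element. It also holds CACGTG, the E-box bound by basic helix-loop-helix factors such as MYC and USF, which occurred in a window of 4 of 13 cytosolic genes (30.8%), 1 of 14 mitochondrial genes (7.14%) and 8.09% of all genes with a window. It runs 5′ to 3′ on the minus strand, the strand of the gene, at chr15:11399609-11399908 of GRCm38.p6, with the start after base 250. The first run of capitals is the ATF4 element as read on the gene's strand, and the second is the E-box at bases 20 to 25 after the start.
Tars promoter: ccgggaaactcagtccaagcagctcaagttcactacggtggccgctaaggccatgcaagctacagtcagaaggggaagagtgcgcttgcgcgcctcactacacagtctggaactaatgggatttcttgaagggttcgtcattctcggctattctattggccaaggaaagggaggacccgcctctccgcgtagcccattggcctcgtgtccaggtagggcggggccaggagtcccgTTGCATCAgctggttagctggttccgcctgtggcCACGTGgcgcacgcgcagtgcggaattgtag
The E-box was also present in the windows of Aars, Farsb and Iars. The interferon-stimulated response element, searched on both strands as GAAA, 2 bases of any kind and GAAA, was present for Qars alone among the 13 cytosolic genes with a window (7.69%), for 0 of 14 mitochondrial genes and for 3.99% of all genes with a window. The window of Wars1, the synthetase known for its interferon response, was not among those at hand.

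Mitochondrial synthetases were expressed at lower levels than the cytosolic ones. By mean FPKM, Nars, Gars, Sars, Dars and Kars were the highest of the 37 genes, and the most abundant mitochondrial gene, Iars2, was 16th, with 15.9 ± 0.557 FPKM in DoxSa and 15.8 ± 0.35 FPKM in DMSO cells. Nars2, whose cytosolic partner was the most abundant of all, was the lowest in FPKM, with 0.745 ± 0.0632 FPKM in DoxSa and 0.769 ± 0.0215 FPKM in DMSO cells. This rank depends on the length used, which was 15488 bases for Nars2 and 2605 for Nars. Nars2 had 434 to 530 reads per library, more than Mars2, with 165 to 231 reads over 2882 bases.

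Yars2, the mitochondrial tyrosyl enzyme, had the highest fold change of the 17, at 0.15 (interval 0.03 to 0.27, limma adjusted p = 0.163). It measured 6.57, 6.40, 6.48 and 5.99 FPKM in the DoxSa libraries and 5.24, 6.06, 6.07 and 5.25 FPKM in the DMSO libraries, and DoxSa library 4 lay within the DMSO range. At the other end, Cars2, the mitochondrial cysteinyl enzyme, measured 3.07, 2.52, 2.91 and 2.59 FPKM in the DoxSa libraries and 3.60, 3.89, 3.95 and 2.58 FPKM in the DMSO libraries. DMSO libraries 1 to 3 stood above all DoxSa libraries, and DMSO library 4 stood among the DoxSa values. The Cars2 fold change was -0.25 ± 0.096 (limma adjusted p = 0.179), and without DMSO library 4 it was -0.35 (adjusted p = 0.0134). Of 19 alternatives this was the only 1 that called Cars2. The direction was opposite to that of the cytosolic Cars, which was not called in limma either.

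Mars2 had a fold change of -0.09 (interval -0.23 to 0.05, and -0.14 with a pseudocount of 0.1). Fars2 had 0.06 (-0.05 to 0.18, and 0.10 with that pseudocount) and Vars2 -0.05 (-0.17 to 0.08). For 10 others (Aars2, Ears2, Hars2, Iars2, Nars2, Pars2, Rars2, Sars2, Tars2 and Wars2) the fold changes lay between -0.03 and 0.04. The interval of the arginyl gene Rars2, -0.06 to 0.13, did not reach the fold change of Rars, and that of the threonyl gene Tars2, -0.07 to 0.11, did not reach that of Tars. The intervals of Nars2 (-0.13 to 0.09) and Wars2 (-0.08 to 0.15) did not reach those of Nars and Wars1 either. That of Sars2, -0.19 to 0.13, included the Sars fold change of 0.12.

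Lars2, the mitochondrial leucyl enzyme, had the largest standard error of the 37. It measured 10.4, 12.8, 11.6 and 11.1 FPKM in the DoxSa libraries and 9.37, 9.49, 10.9 and 18.3 FPKM in the DMSO libraries. DMSO library 4 stood alone above all other libraries, and the fold change was -0.01 ± 0.163 with all 8 libraries and 0.19 without that library. DMSO library 4 was also well above the other DMSO libraries for 3 of the genes that were looked up after the Lars2 values had been seen. Gm26917 measured 269.5 FPKM there, against 99.2 to 131 FPKM in the other DMSO libraries. The mitochondrial genome's ATP8 measured 142 FPKM there, against 10.1 to 23.5 FPKM in the other DMSO libraries, and ND6 measured 171 FPKM, against 66.1 to 99.3 FPKM. COX1, CYTB and ND1, other transcripts of the mitochondrial genome that were also looked up, did not stand apart in this way. COX1 measured 14950 FPKM in DMSO library 4 and 14730 FPKM in DMSO library 3, CYTB measured 4125 and 4120 FPKM in these libraries, and ND1 measured 3673 and 3849 FPKM. Their part in the Lars2 value was not tested.

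The ratio of a cytosolic synthetase to the mitochondrial one for the same amino acid was taken within each library, which gave 18 pairs with Eprs and Fars2 used more than once. In all 18 pairs the cytosolic transcript was the more abundant in each of the 8 libraries, with mean ratios in DMSO cells from 1.42 for Iars over Iars2 to 104.5 for Nars over Nars2. The size of the Nars to Nars2 ratio depends on the length of 15488 bases used for Nars2. The mean log2 ratio was higher in DoxSa than in DMSO cells for 16 of 18 pairs, the exceptions being Farsa over Fars2 and Yars over Yars2. In 5 pairs all DoxSa ratios stood above all DMSO ratios, and in 13 the groups overlapped. The shares over other pairs of genes were not taken, so these counts have no background of their own. Of single tested genes, 56.7% had a fold change above 0 and 7.8% had every DoxSa library above every DMSO library. The Rars to Rars2 ratio was 4.93, 5.09, 4.95 and 4.97 in the DoxSa libraries, against 4.34, 4.01, 4.45 and 4.19 in the DMSO libraries. Its DoxSa values lay close together and apart from DMSO. Of the other separate pairs, Nars over Nars2 had mean ratios of 123.5 in DoxSa and 104.5 in DMSO cells, Wars1 over Wars2 had 14.2 in DoxSa and 12.0 in DMSO cells, and Tars over Tars2 had 5.76 in DoxSa and 5.19 in DMSO cells. These 4 pairs contain a gene that rose, and no test was run on the ratios.

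**Figure D4:**
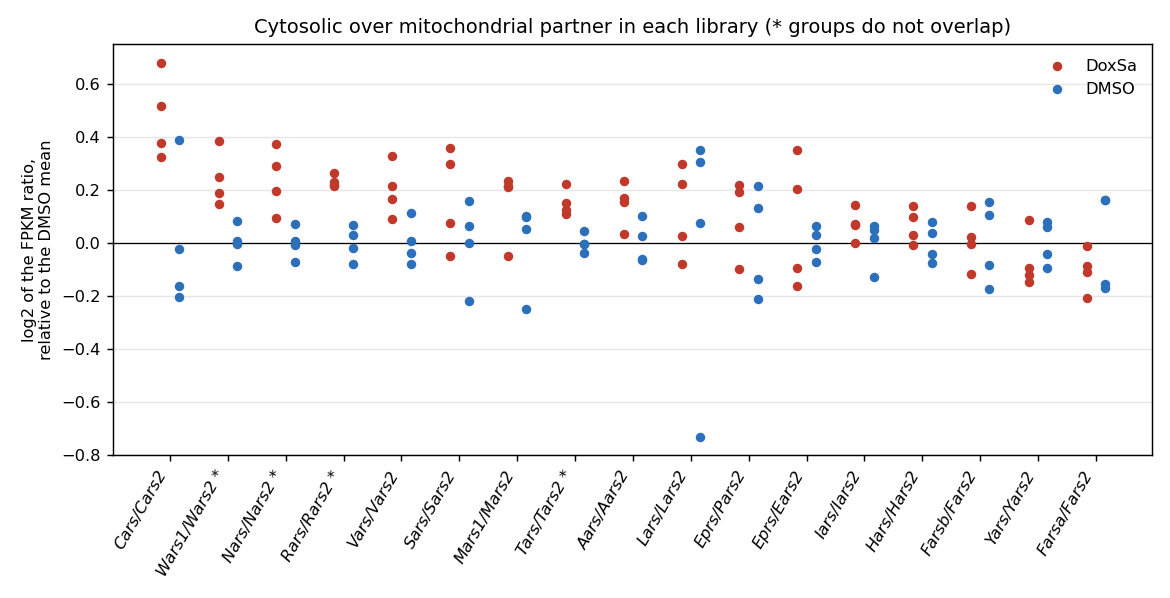
Log2 ratio of the FPKM of a cytosolic synthetase to its mitochondrial partner for 17 of the 18 pairs in the 4 DoxSa libraries (red, left) and the 4 DMSO libraries (blue), relative to the mean log2 ratio of the DMSO libraries, ordered by the difference between group means. The DoxSa and DMSO points are separate in the 4 pairs marked with an asterisk, and the low DMSO point of the Lars pair is the library with high Lars2.

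Genes of the pathways around transfer RNA charging were set beside the synthetases. In a list of 30 other regulators and targets of the ATF4 pathway, 11 of 29 tested genes rose and 0 fell. Of all tested genes, 3.88% rose and 2.02% fell. The median fold change of the list was 0.12. Atf4 itself averaged 137.5 ± 3.74 FPKM in DoxSa and 121.5 ± 3.16 FPKM in DMSO cells (SD, n = 4 each), a fold change of 0.18 ± 0.033 (limma, Benjamini-Hochberg adjusted p = 0.0113). Gdf15, a secreted stress factor, rose by 0.91, Atf3, a stress-induced transcription factor, by 0.68, Ppp1r15a, the phosphatase subunit that reverses eIF2 phosphorylation, by 0.45 and Ddit3 by 0.39. Asns, the asparagine synthetase gene and a standard ATF4 target, averaged 26.3 ± 1.1 FPKM in DoxSa and 24.0 ± 1.6 FPKM in DMSO cells and was not called (0.13 ± 0.049, limma adjusted p = 0.165). The count of 11 was 7 without DoxSa library 2, 7 without DoxSa library 3 and 6 with no filter on low values. Over all libraries left out in turn the count lay between 7 and 13, and it was 12 with voom.

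In a list of the eIF2 kinases and the activator gene Gcn1, 1 of 5 rose, beside 3.88% of all tested genes. This was Eif2ak2, the kinase PKR that senses double-stranded RNA and is itself induced by interferon, with 19.5 ± 1.31 FPKM in DoxSa and 14.5 ± 2.15 FPKM in DMSO cells (0.41 ± 0.086, limma, Benjamini-Hochberg adjusted p = 0.0183). The call was lost without DoxSa library 1 (adjusted p = 0.0574) and with no filter on low values (0.108). Eif2ak4, the gene of GCN2, the kinase that senses uncharged transfer RNA, averaged 4.21 ± 0.271 FPKM in DoxSa and 4.36 ± 0.169 FPKM in DMSO cells (-0.04 ± 0.050, adjusted p = 0.730).

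Of 16 tested amino acid transporter genes, 4 rose and 0 fell, beside 3.88% and 2.02% of all tested genes. Their median fold change was 0.09. Slc7a11, the cystine transporter, averaged 1.93 ± 0.195 FPKM in DoxSa and 0.481 ± 0.0457 FPKM in DMSO cells, a fold change of 0.98 ± 0.059 on log2(FPKM + 1), which understates the change of so low a gene (limma, Benjamini-Hochberg adjusted p = 1.54e-05). Slc3a2, the heavy chain shared by several transporters, rose by 0.36, Slc6a9, a glycine transporter, by 0.41 and Slc7a1, a transporter of arginine and lysine, by 0.23. The call of Slc7a1 was lost when any 1 of DoxSa libraries 1, 2 or 4 or DMSO libraries 1, 3 or 4 was left out, with adjusted p-values of 0.0542 to 0.0821, and with no filter on low values (0.0866).

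In the unfolded protein response of the endoplasmic reticulum, 11 of 19 tested genes rose and 0 fell, with a median of 0.16. The shares over all tested genes were 3.88% and 2.02%. Hspa5, the chaperone BiP, averaged 475 ± 16.5 FPKM in DoxSa and 348 ± 16.5 FPKM in DMSO cells (0.45 ± 0.041, limma, Benjamini-Hochberg adjusted p = 0.000201). The chaperone genes Hyou1 (0.30) and Hsp90b1 (0.25) and the secreted reticulum factor Creld2 (0.43) rose as well. The count lay between 8 and 10 when 1 library was left out and was 7 with no filter on low values.

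Interferon-induced genes had the largest median fold change of the 14 lists. Of 22 tested, 16 rose and 0 fell, beside 3.88% and 2.02% of all tested genes. The median fold change was 0.63. Ifit1 rose by 1.42, Oasl1 by 1.195, Gbp5, a guanylate-binding protein gene that interferon gamma induces, by 0.74 and Gbp7 by 0.55. The count of 16 was 5 without DoxSa library 1, 4 without DoxSa library 2, 7 without each of DoxSa library 3, DMSO library 2 and DMSO library 3, and 0 with no filter on low values. Over all libraries left out in turn the count lay between 4 and 22, and it was 20 with voom. Summed over the list, the level was 434.9 to 639 FPKM in DoxSa and 274.9 to 458.1 FPKM in DMSO libraries, so the groups overlapped. Wars1 moved with these genes in direction, and its share in this response was not tested.

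Genes of the other steps between transfer RNA genes and the ribosome were counted in the same way, beside the 3.88% of all tested genes that rose. Of 26 cytosolic initiation factor genes 24 had a fold change above 0, with a median of 0.04. At an unadjusted p under 0.05 in limma, 7 of them were higher and 0 lower, beside 12.6% and 7.24% of all tested genes. Of the 26 genes 2 rose, Eif3a (0.24 ± 0.055, limma adjusted p = 0.0286), the largest subunit of eIF3, and Eif5b (0.23 ± 0.061, adjusted p = 0.0475), which joins the ribosomal subunits. Neither call held when DoxSa library 1, DoxSa library 4, DMSO library 1 or DMSO library 2 was left out, and that of Eif5b held, among these 8, only without DMSO library 4. With no filter on low values the adjusted p-values were 0.121 for Eif3a and 0.159 for Eif5b, and Eif5b was also lost under each of the 3 rescalings (0.0643 to 0.115) and without the intensity trend (0.0657). Of 19 tested genes of transfer RNA processing and export 1 rose, Trnt1, which adds the terminal CCA to which amino acids are attached (6.27 ± 0.237 FPKM in DoxSa and 5.26 ± 0.106 FPKM in DMSO cells, 0.21 ± 0.042, limma adjusted p = 0.0135). It remained called when any single library was left out.

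In limma 0 genes were called among the 6 tested elongation factors (median 0.06, with 6 of 6 above 0), the 22 genes of RNA polymerase III transcription (median 0.03), the 11 mitochondrial translation factors (median -0.02), the 6 genes of transfer RNA editing (median 0.0085), the 6 of selenocysteine transfer RNA (median -0.0085) and the 4 of mitochondrial amidation and formylation (median -0.03). In voom 0 genes of these 6 lists were called. At an unadjusted p under 0.05, Crcp, Mtrf1 and Dtd1 were higher, of the polymerase III, mitochondrial translation and editing lists, Gatc of the amidation list was lower, and 0 passed among the elongation and selenocysteine genes. Tarsl2, a further threonyl-tRNA synthetase gene that the naming rule does not take, had a fold change of 0.05 (limma adjusted p = 0.624).

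**Figure D5:**
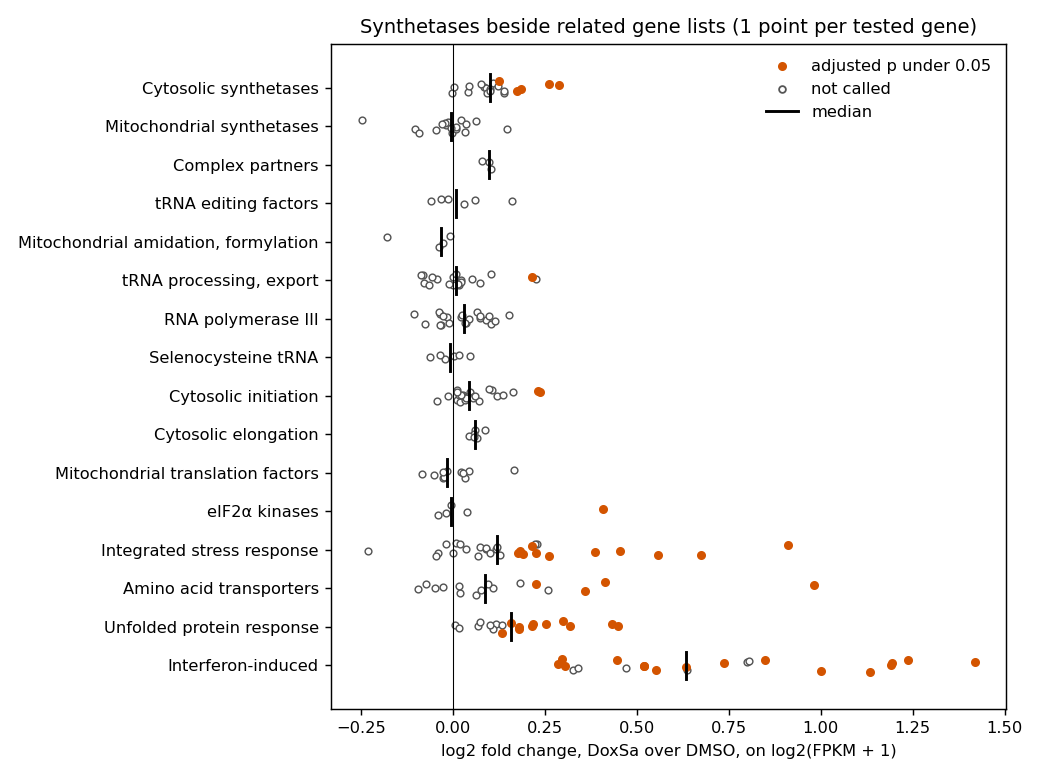
Log2 fold changes of DoxSa over DMSO for the cytosolic and mitochondrial synthetases and for 14 lists of related genes (1 point per tested gene, filled where the adjusted p is under 0.05, bars for medians). The cytosolic synthetases have a median of 0.10 and the mitochondrial ones -0.0042, beside medians of 0.12 for the integrated stress response and 0.63 for the interferon-induced genes.

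Markers of the cell types that such a culture could hold were measured in the same libraries. For comparison, 3.88% of all tested genes rose and 2.02% fell. At an unadjusted p under 0.05 in limma, 12.6% of all tested genes were higher and 7.24% lower. Adipocyte markers were high, with Adipoq at 772 ± 19.2 FPKM in DoxSa and 774 ± 29.8 FPKM in DMSO cells, and of 10 adipocyte markers 0 rose in limma and 1, Retn, fell. Their median fold change was -0.08, with 1 of 10 above 0 and 3 lower at an unadjusted p under 0.05. Macrophage markers were also abundant, summing to 6993 to 7471 FPKM in DoxSa and 6272 to 7230 FPKM in DMSO libraries. Of these 10 markers 1 rose, Fcgr1, which interferon also induces, and 5 were higher at an unadjusted p under 0.05. The median fold change was 0.10, as large as that of the cytosolic synthetases, and 10 of 10 were above 0. The summed progenitor and fibroblast markers were 3126 to 3521 FPKM in DoxSa and 3120 to 3496 FPKM in DMSO libraries, with Cd55 higher and Pdgfrb lower of 8 tested. The summed markers of dividing cells were 72.3 to 75.8 FPKM in DoxSa and 69.3 to 76.4 FPKM in DMSO libraries, with 0 of 8 called in limma, 0 in voom and 0 at an unadjusted p under 0.05. Endothelial (3.50 to 3.79 FPKM in DoxSa and 2.79 to 3.36 FPKM in DMSO libraries), mesothelial (11.6 to 16.2 FPKM in DoxSa and 16.8 to 17.3 FPKM in DMSO libraries) and lymphocyte markers (at most 0.298 FPKM in DoxSa and 0.2505 FPKM in DMSO libraries) were low in sum. Most of the mesothelial sum was Krt19, with means of 13.9 FPKM in DoxSa and 16.5 FPKM in DMSO cells (limma adjusted p = 0.113). Every DoxSa library lay below every DMSO library for Krt19, as for 4.71% of all tested genes. The part of a change in the mix of cells in the synthetase values was not tested.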

How the data were processed

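Wild-type gonadal stromal vascular cells, differentiated to adipocytes and given DoxSa or DMSO, were assigned to groups and replicate numbers from the sample titles. Per the labels' protocols, TRIzol was used for the RNA and a VAHTS Universal V6 kit for the libraries. HISAT2, HTSeq and build GRCm39 were used, per the submitters' processing notes, and for versions, annotation and strand nothing is stated. As FPKM, the authors' deposited values are scaled to gene length and library reads without a correction for composition, so abundant genes that go up pull the others down. All 8 of its value columns belonged to the samples (0 other columns).

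Because the FPKM steps by the worth of 1 read, library totals, gene lengths and reads were recovered from low values. For 12060 of 12060 tested genes the reads of all 8 libraries came out whole (within 0.001). The test was limma 3.58.1 (R 4.3.3) on log2(FPKM + 1), with an intensity trend in eBayes, on genes averaging 0.5 FPKM or more, with no covariate, Benjamini-Hochberg adjustment over all of them and a threshold of 0.05. The test was also run on simulated data in which every gene had the same extra spread between libraries and no library stood apart. That run does not show how the test behaves for genes such as Lars2, and no result here rests on it. voom on the recovered reads was an alternative, and it called 7 synthetases and 627 genes higher and 317 lower, against 5, 468 and 244 in limma. The other alternatives were other pseudocounts (0.1 and 0.5), filters and scalings, quality weights, a replicate block and leaving out each library.

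The synthetases, the 14 related and 7 marker lists and all tests were chosen with earlier results of these data known. Of 263 list entries 257 matched a gene, 1 of them through an older symbol. That entry, the lymphocyte marker Ms4a1, was matched to Ms4a2, which is a different gene and is included in the lymphocyte sum. The text names the synthetases, up to 4 called genes of each related list by adjusted p, and a panel of genes (Atf4, Ddit3, Asns, Aimp1, Aimp2, Eef1e1, Eif2ak4 and Hspa5); marker genes, overlapping neighbours and the genes beside Lars2 were named after their values were seen. Some genes and sequences that these rules take are not reported here, though they are included in the counts, sums and medians. Promoters came from RefSeq (GRCm38.p6), and no other coordinates are given because the builds differ. Windows were not at hand, for example, for Cars, Hars, Hars2, Lars, Nars, Pars2, Rars, Vars and Wars1. The tables and figures were made in Python 3.11.15 with numpy 2.4.6, matplotlib 3.10.9 and pandas 2.3.3.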

Additional observations from a re-analysis of the deposited data

Results flagged for a closer look

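In groups of 4 libraries, a library was picked out when its gap to the nearest of the others, divided by the range of the group, was above Dixon's 95% critical value for a group of that size. Of 124 groups of values (36 synthetases and 26 other named genes, each in DoxSa and in DMSO), 6 passed, and chance alone would pick about 5%. Among the synthetases, DoxSa library 4 was low for Aars, at 28.98 FPKM, where the other DoxSa libraries held 30.9 to 31.3 FPKM. DoxSa library 2 was low for Vars2, at 3.372 FPKM, beside 3.74 to 3.77 FPKM in the others. DMSO library 4 was low for Iars, at 21 FPKM, beside 22.64 to 22.92 FPKM, and high for Lars2, at 18.26 FPKM, beside 9.37 to 10.9 FPKM. DMSO library 3 was high for Sars, at 50.17 FPKM, beside 48.1 to 48.4 FPKM, which brought it nearer to the DoxSa libraries. Of the other named genes, DMSO library 2 was high for Slc3a2, at 14.68 FPKM beside 13.3 to 13.6 FPKM.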

How the results depend on the processing

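Over 19 alternatives, Rars and Nars stayed called in 19, Wars1 in 18, Tars in 15 and Sars in 7. The cytosolic median fold change lay between 0.0794 and 0.1196 and the mitochondrial one between -0.0200 and 0.00779. Without the filter, 22962 genes were tested, 3 synthetases, all cytosolic, were called higher, and 158 genes rose and 108 fell. Leaving out 1 library at a time gave 3 to 5 called synthetases, 3 to 4 cytosolic ones called higher, and 234 to 486 genes higher and 152 to 234 lower. Of these, 250 higher and 154 lower were found without DoxSa library 1, 234 and 152 without DoxSa library 2, and 158 lower without DMSO library 2. Quantile normalization gave 384 higher and 316 lower genes (54.9% higher, against 65.7%), and the cause was not tested. Of the 37 synthetases, signs turned in 9, all with fold changes between -0.03 and 0.01. Under equal FPKM sums, median-of-ratios scaling and quantile normalization, Iars2 was -0.00472, -0.00529 and -0.0283 and Mars1 was -0.0108, -0.0113 and -0.0304. With library quality weights, Aars2 was 0.00519 and Lars2 0.0518. With 1 library left out, the values were -0.0225 to 0.00995 for Aars2, -0.0244 to 0.0461 for Ears2, -0.0299 to 0.0327 for Farsa, -0.0617 to 0.0124 for Hars2, -0.0141 to 0.0219 for Iars2, -0.104 to 0.193 for Lars2, -0.0139 to 0.0207 for Mars1, -0.0499 to 0.0484 for Pars2 and -0.0748 to 0.0198 for Sars2. Same-numbered DoxSa and DMSO libraries deviated together with correlations of -0.06, 0.05, -0.10 and 0.07, so the numbers were not taken as pairs. A fit with the replicate number as a block called 4 synthetases, Sars being lost, and 415 genes higher and 209 lower. FPKM depth limits the lowest genes most, with 165 reads for Mars2 in its lowest library.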
